A study of Mus musculus with 6 samples.

Results

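Imprinted genes are transcribed from the copy inherited from 1 parent, and 40 of them were followed here in mouse fetal germ cells. They were chosen by name from known imprinted genes, not by their values, and all 40 had a row among the 23837 named genes of the arrays. By the parental copy they are known to use in mouse tissues, 24 are paternally expressed and 15 maternally expressed, while *Gnas* makes transcripts of both kinds and was kept apart. Together they lie in 18 imprinted domains. Gene expression was measured in primordial germ cells (PGCs) sorted by EGFP from the gonads of E13.5 male embryos, on 1-colour Affymetrix arrays. The WT samples carried the genotype og2.fvb.fancg +/+ and the mutant samples og2.fvb.fancg -/-, with 3 samples of each. All embryos therefore shared the OG2 reporter, in which EGFP is under the distal *Oct3/4* enhancer, and came from matings of heterozygotes. A sample was a pool of 10000 PGCs from at least 5 embryos, so that p-values measure the spread between pools, and 500 pg of its RNA was amplified for 1 array. FANCG belongs to the Fanconi anemia core complex, which acts in the repair of DNA crosslinks.

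In somatic cells, a mark of DNA methylation set in the egg or the sperm keeps 1 parental copy of an imprinted domain silent, either at a promoter or at a control region that acts on several genes at once. PGCs erase these marks while they enter the gonad, and male germ cells lay down marks of the paternal kind only later in fetal life, so that this stage lies in the window in which both copies can be unmarked. Many paternally expressed genes promote fetal growth and many maternally expressed genes restrain it. The arrays measure the RNA of both copies together. Neither the allele of origin nor DNA methylation was measured, and imprinting of several members is known in some tissues only, as for *Ube3a* in neurons and *Ascl2* in placenta.

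The starts of 5 members on which the comparisons turn are given as RefSeq sequence of assembly GRCm38.p6, each as the 250 bases before an annotated start, read 5′ to 3′ on the strand of the gene. *Mest* and *Mcts2* are shown because in mouse their promoters carry the mark set in the egg, and *Meg3* because its promoter gains methylation on the paternal copy after fertilization. *Dio3* and *Phlda2* are shown because they had the smallest p-values of all members in each direction. Capitals mark TGCCGC, the letters recognized by ZFP57 when methylated, or its reverse complement GCGGCA.
*Mest*, chr6:30737800-30738049, plus strand: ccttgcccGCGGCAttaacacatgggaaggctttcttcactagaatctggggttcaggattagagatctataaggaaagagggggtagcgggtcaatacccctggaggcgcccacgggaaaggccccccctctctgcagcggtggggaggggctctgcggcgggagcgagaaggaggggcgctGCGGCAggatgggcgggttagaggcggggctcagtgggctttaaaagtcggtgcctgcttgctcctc
*Mcts2*, chr2:152686898-152687147, plus strand: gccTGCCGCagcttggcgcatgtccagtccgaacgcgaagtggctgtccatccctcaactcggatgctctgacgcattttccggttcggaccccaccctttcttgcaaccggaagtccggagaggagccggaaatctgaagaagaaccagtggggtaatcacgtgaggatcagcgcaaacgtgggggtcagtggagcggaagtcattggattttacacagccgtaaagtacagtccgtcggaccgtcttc
*Meg3*, chr12:109540746-109540995, plus strand: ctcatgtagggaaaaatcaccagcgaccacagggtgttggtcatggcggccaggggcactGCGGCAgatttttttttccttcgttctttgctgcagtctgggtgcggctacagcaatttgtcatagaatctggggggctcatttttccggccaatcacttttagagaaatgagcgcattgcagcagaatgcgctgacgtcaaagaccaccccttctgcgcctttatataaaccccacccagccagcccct
*Dio3*, chr12:110278980-110279229, plus strand: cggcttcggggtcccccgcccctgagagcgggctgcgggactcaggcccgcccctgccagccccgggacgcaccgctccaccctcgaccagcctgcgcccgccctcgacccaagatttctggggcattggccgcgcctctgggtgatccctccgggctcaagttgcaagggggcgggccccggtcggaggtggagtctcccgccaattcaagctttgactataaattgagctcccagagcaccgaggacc
*Phlda2*, chr7:143502525-143502774, minus strand: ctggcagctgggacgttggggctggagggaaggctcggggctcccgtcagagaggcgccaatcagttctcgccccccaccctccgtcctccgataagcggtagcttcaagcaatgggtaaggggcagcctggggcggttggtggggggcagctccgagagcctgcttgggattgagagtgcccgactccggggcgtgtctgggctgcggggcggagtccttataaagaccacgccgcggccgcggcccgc

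RefSeq windows from 250 bases before to 50 after the start were found for 35 of the 40 members, 53 windows in all. TGCCGC on either strand lay in at least 1 window of 10 of these 35 members, 28.6%, and in 3527 of the 27025 genes with a window, or 13%. Members had more windows per gene than all genes. Counted by window, the letters lay in 11 of the 53 member windows and in 11.6% of all 32851 windows. The richest window of a member held a median of 17 CpG dinucleotides, and that of all genes a median of 8. The binding letters of YY1, GCCATNTT with N for any base, were found on either strand in 3 of the 35 members, 8.57%, and in 6.96% of all genes. *Mest*, *Mcts2* and *Meg3* thus carried the ZFP57 letters in the stretch shown, and *Dio3* and *Phlda2* did not. *Mest* and *Meg3* each also have another annotated start without these letters in the 250 bases before it. A match of letters is a description, not a measured site.

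Values are log2 signals after RMA normalization by the authors, and a difference is the mean of samples labelled *Fancg*-/- minus the mean of WT, so that 1 unit is a 2-fold change. Each gene was fitted with limma and p-values were adjusted over all 23837 named genes, a gene being called at an adjusted p under 0.05. Signals of different genes come from different probes, and their heights are not set against each other. Sample medians lay between 4.68 and 4.75 and correlations between samples between 0.989 and 0.994. The targeted gene *Fancg* read 6.07, 5.95 and 6.37 in WT and 6.38, 6.65 and 6.87 in the mutant samples, a difference of 0.51 (standard error 0.16, adjusted p = 0.275). This goes against the direction of a lost transcript, but no source used here places the probes relative to the *Pgk-hygromycin* cassette of the mutant allele, so the row is no check of the genotypes. Mutant samples are called labelled samples below, and every direction rests on that label. Of the 14 germ cell markers, all were measured, and *Dazl* lay between 11.65 and 11.81 and *Ddx4* between 9.999 and 10.50 in all 6 samples. For *Dazl* all labelled samples lay below all WT samples. Groups did not overlap for 42.9% of these markers, 3 higher and 3 lower, beside 17.9% of all genes. The mean over the 14 markers was 8.79 to 8.91 in WT and 8.75 to 8.78 in labelled samples. No measured marker of Leydig, Sertoli or stromal cells lay in the lowest 25% of signals, and their values are given beside the results they move with.

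None of the 40 members was called, and neither was any of the 23837 genes (0%), the smallest adjusted p being 0.229 among members (*Dio3*) and 0.114 among all genes. At an unadjusted p under 0.05 there were 4 members (10%), beside 2956 of all genes (12.4%). *Dio3*, *Meg3* and *Gnas* had lower means in labelled samples and *Phlda2* a higher one, beside 6.17% of all genes lower and 6.23% higher. By overlap, all 3 labelled samples lay below all 3 WT samples for 6 members or 15% (*Mest*, *H19*, *Ube3a*, *Mcts2*, *Dio3* and *Gnas*) and above them for 0, beside 8.45% and 9.45% of all genes. With both directions together, members were thus neither called nor past the unadjusted threshold at a higher share than other genes. The same held for groups without overlap, at 15% beside 17.9% of all genes. In the lower direction alone, 3 of the 40 members were past the threshold, beside 6.17% of all genes. Wholly below WT lay 15% of members, beside 8.45% of all genes. With 3 samples a group, the smallest two-sided p of an exact permutation test is 0.1.

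The signs of the differences were uneven. The mean was lower in labelled samples for 30 of the 40 members (75.0%) and for 47.1% of all genes, and the median difference was -0.12 over members and 0.01 over all genes. Most of these differences were small, with only 3 members more than 0.4 from 0. The count of lower members depended on single samples. It was 23 of 40 without WT replicate 3 and 33 of 40 without WT replicate 1. The mean over all 40 members was 6.03, 6.22 and 6.23 in WT replicates 1, 2 and 3 and 6.02, 6.09 and 6.01 in labelled replicates 1, 2 and 3. WT replicate 1 thus lay within the range of the labelled samples, and the other WT samples lay above that range. Among the WT samples, replicate 1 was the lowest for 24 members (60.0%), but for 34.4% of all genes.

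Paternally and maternally expressed members leaned the same way. Of the 24 paternally expressed genes, 18 had a lower mean in labelled samples, with a median difference of -0.08 and values from -0.40 (*Dio3*) to 0.21 (*Slc38a4*). Of the 15 maternally expressed genes, 11 had a lower mean, with a median of -0.22 and values from -0.76 (*Meg3*) to 0.47 (*Phlda2*). The difference between both classes was not tested. The mean over the paternally expressed genes was 6.07, 6.25 and 6.25 in WT and 6.12, 6.14 and 6.07 in labelled samples. That over the maternally expressed genes was 6.005, 6.22 and 6.22 in WT and 5.92, 6.05 and 5.97 in labelled samples. In both classes WT replicate 1 lay apart from the other WT samples and the groups overlapped.

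Precision was enough to bound most members. The 95% interval of the difference lay within 1.5-fold in either direction for 26 members and within 2-fold for 38, with half-widths from 0.19 to 0.61. It excluded 0 for the 4 members named above. The spread between replicates had a median SD of 0.18 in WT and 0.19 in labelled samples over the members, and of 0.12 and 0.13 over all genes.

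**Figure D1:**
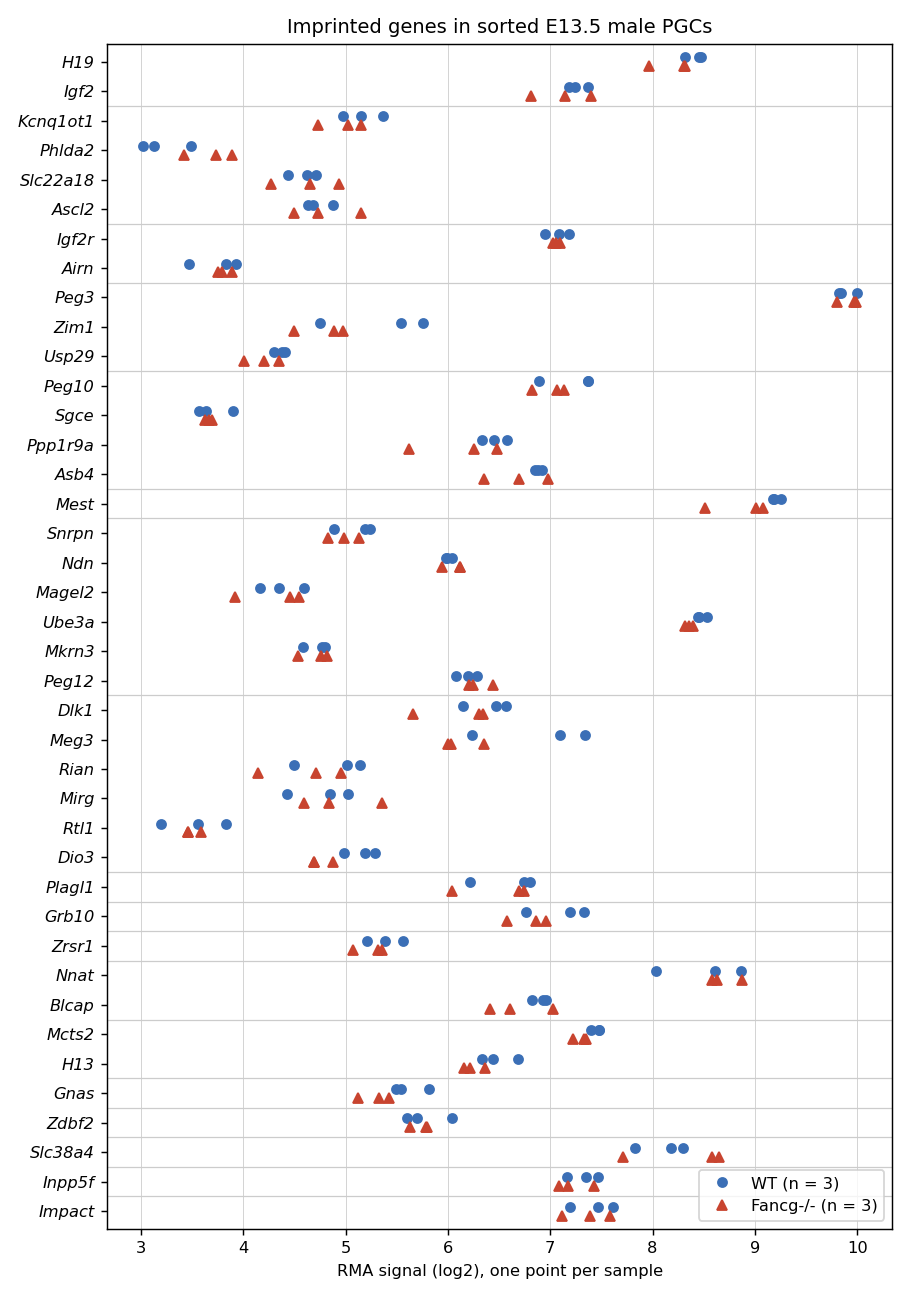
Log2 RMA signal (horizontal axis) of the 40 imprinted genes, grouped by domain between grey lines, with 1 point per sample (circles, 3 WT; triangles, 3 labelled *Fancg*-/-). Points of the groups interleave for most genes, and for *Mest*, *H19*, *Ube3a*, *Mcts2*, *Dio3* and *Gnas* all triangles lie to the left of the circles.

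**Figure D2:**
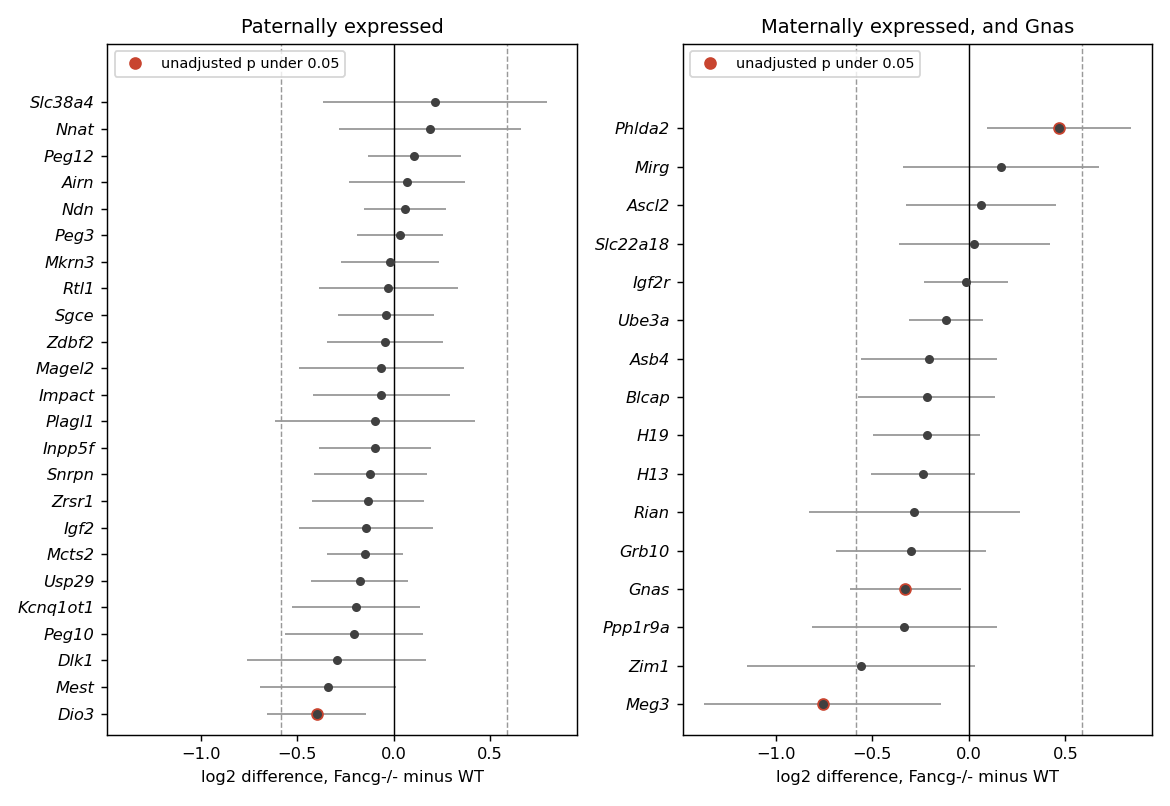
Log2 difference, *Fancg*-/- minus WT, with its 95% interval from limma, for the 24 paternally expressed genes (left) and for the 15 maternally expressed genes and *Gnas* (right), with 3 samples per group. Dashed lines mark 1.5-fold, and red points mark the 4 genes with an unadjusted p under 0.05.

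The *Dlk1*-*Dio3* domain held 2 of the 3 members that were lower at the unadjusted threshold. In this domain the paternal copy gives *Dlk1*, a transmembrane ligand related to those of Notch that restrains fat cell formation, *Rtl1*, a retrotransposon-derived gene of the placenta, and *Dio3*, which encodes a deiodinase that inactivates thyroid hormone. The maternal copy gives the noncoding RNAs *Meg3*, *Rian* and *Mirg*, which host snoRNAs and microRNAs. *Dio3* read 5.29, 5.19 and 4.98 in WT and 4.88, 4.69 and 4.69 in labelled samples. Every labelled sample lay below every WT sample, by a narrow margin between labelled replicate 1 and WT replicate 3. The difference was -0.40 (standard error 0.11, adjusted p = 0.229), or 1.32-fold.

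*Meg3*, a noncoding RNA with growth-restraining activity, had the largest difference of the 40 members. It read 6.23, 7.09 and 7.34 in WT replicates 1, 2 and 3 and 6.01, 6.03 and 6.35 in labelled samples. WT replicates 2 and 3 stood above all other samples, and WT replicate 1 lay between the labelled samples. The difference was -0.76 (standard error 0.27, adjusted p = 0.321), or 1.69-fold, with an interval from -1.37 to -0.14. Without WT replicate 1 it was -1.09 (adjusted p = 0.0905).

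The other transcripts of the domain had smaller differences, and their groups overlapped. *Rian*, the snoRNA host that follows *Meg3*, read 4.497, 5.15 and 5.01 in WT and 4.14, 4.95 and 4.71 in labelled samples, a difference of -0.28 (standard error 0.24). *Mirg*, the microRNA host at the far end, read 4.43, 5.02 and 4.84 in WT and 4.60, 5.36 and 4.84 in labelled samples, a difference of 0.17 (standard error 0.22). For *Meg3*, *Rian* and *Mirg* alike, WT replicate 1 was the lowest WT sample. *Dlk1* read 6.15, 6.57 and 6.47 in WT and 6.34, 6.30 and 5.66 in labelled samples, a difference of -0.30 (standard error 0.20), with labelled replicate 3 far below the others. *Rtl1* read 3.56, 3.20 and 3.83 in WT and 3.59, 3.46 and 3.46 in labelled samples, a difference of -0.03 (standard error 0.16).

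**Figure D3:**
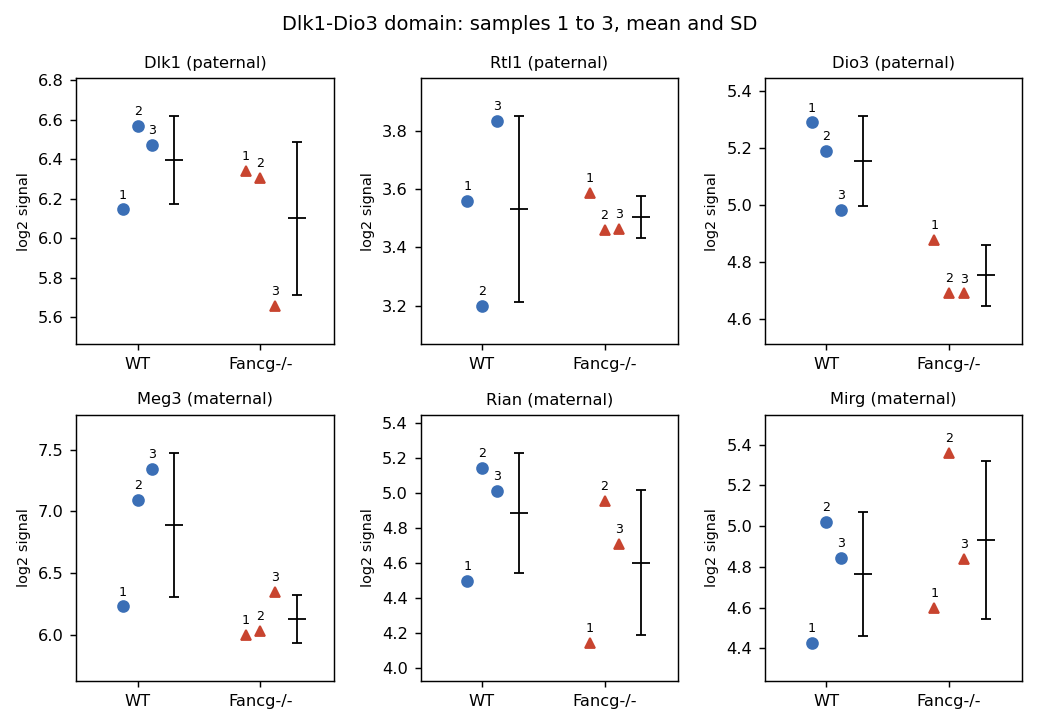
Log2 signal (vertical axes, a scale per panel) of the 6 genes of the *Dlk1*-*Dio3* domain in each sample, numbered by replicate, with the group mean and SD (n = 3) in black. *Dio3* is the only gene of the 6 whose groups do not overlap, and the WT spread of *Meg3* comes from WT replicate 1, at 6.23 against 7.09 and 7.34.

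Small RNA genes inside imprinted transcripts were read through rows for their hairpin genes, so that mature microRNAs were not measured. Of 50 listed, 44 had a row, and 30 of these lay in the lowest 25% of all signals. Over the 44, 27 had a higher and 17 a lower mean in labelled samples, with a median difference of 0.03. By the unadjusted threshold, 2 were lower and 0 higher, or 4.55%, beside 12.4% of all genes. By overlap, 1 lay wholly below WT (*Snord64*) and 4 wholly above it (*Mir127*, *Mir134*, *Mir369* and *Mir382*). This was 11.4% of the 44, beside 17.9% of all genes, so neither share exceeded that of other genes. *Mir665*, a microRNA gene of the *Dlk1*-*Dio3* domain, read 6.48, 6.76 and 6.65 in WT and 6.50, 6.13 and 6.21 in labelled samples, a difference of -0.35 (standard error 0.13, adjusted p = 0.337). *Snord64*, a snoRNA gene of the *Snrpn* domain, read 4.96, 5.63 and 5.03 in WT and 4.74, 4.71 and 4.75 in labelled samples, a difference of -0.47 (standard error 0.17, adjusted p = 0.333). For *Mir665* labelled replicate 1 lay among the WT samples. *Mir127*, antisense to *Rtl1*, read 2.41, 2.72 and 2.71 in WT and 2.78, 2.83 and 2.90 in labelled samples, a difference of 0.22 (standard error 0.11, adjusted p = 0.468). *Mir382*, further along the domain, read 2.46, 2.47 and 2.30 in WT and 2.57, 2.55 and 2.54 in labelled samples, a difference of 0.15 (standard error 0.09, adjusted p = 0.547). Both of these rows lay in the lowest 25% of signals. The mature arms of *Mir665* and *Mir127* are given from RefSeq because the row names do not show them, with the seed (bases 2 to 8) in capitals, and no seed among them is shared.
mmu-miR-665-5p: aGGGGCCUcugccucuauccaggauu
mmu-miR-665-3p: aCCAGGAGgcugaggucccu
mmu-miR-127-5p: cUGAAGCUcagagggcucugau
mmu-miR-127-3p: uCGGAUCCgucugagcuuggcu

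The growth regulators of the *H19*-*Igf2* and *Igf2r*-*Airn* domains showed small differences. *Igf2* encodes a fetal growth factor from the paternal copy, and *H19* is a noncoding RNA of the maternal copy that competes for the same enhancers. *H19* read 8.32, 8.47 and 8.46 in WT and 8.32, 8.31 and 7.96 in labelled samples. The groups did not overlap, but WT replicate 1 and labelled replicate 1 were nearly equal, and labelled replicate 3 carried much of the difference of -0.22 (standard error 0.12, adjusted p = 0.512), which was -0.10 without it. *Igf2* read 7.24, 7.37 and 7.18 in WT and 7.39, 7.15 and 6.81 in labelled samples, a difference of -0.14 (standard error 0.15) that was 0.01 without labelled replicate 3. *Igf2r*, which encodes a maternally expressed receptor that clears IGF2, read 6.94, 7.09 and 7.18 in WT and 7.06, 7.02 and 7.10 in labelled samples. Its difference of -0.01 had an interval from -0.23 to 0.20. *Airn*, the paternal noncoding RNA antisense to *Igf2r*, read 3.47, 3.83 and 3.93 in WT and 3.89, 3.80 and 3.76 in labelled samples, a difference of 0.07. These arrays are not stated here to tell the strands of overlapping genes apart, so *Airn* and *Igf2r* are uncertain where they overlap.

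*Phlda2* was the member with the highest difference and the only one above 0 at the unadjusted threshold. It encodes a maternally expressed protein that restrains placental growth and lies in the domain of the paternal noncoding RNA *Kcnq1ot1*. *Phlda2* read 3.49, 3.02 and 3.13 in WT and 3.42, 3.89 and 3.73 in labelled samples. WT replicate 1 stood above labelled replicate 1, so the groups overlapped. The difference was 0.47 (standard error 0.16, adjusted p = 0.317), or 1.38-fold, and the gene lay in the lower-signal 50% of rows. Its mean signal of 3.45 was the lowest of all members and close to 3.41, the upper bound of the lowest 25% of signals. *Kcnq1ot1* read 4.97, 5.36 and 5.15 in WT and 5.02, 4.73 and 5.15 in labelled samples, a difference of -0.20 (standard error 0.14). The other maternally expressed members of the domain were *Slc22a18*, a transporter gene, at 0.03 and *Ascl2*, a placental transcription factor gene, at 0.06. *Cdkn1c*, the maternally expressed cell cycle inhibitor of the same domain that is not a member, read 5.80, 6.58 and 6.27 in WT and 5.72, 5.79 and 5.66 in labelled samples. All its labelled samples lay below all WT samples, with a difference of -0.49 (standard error 0.18, adjusted p = 0.346).

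*Mest* stands alone among the members in its domain and encodes a paternally expressed hydrolase-like protein linked to growth. It read 9.25, 9.19 and 9.18 in WT and 9.08, 9.01 and 8.51 in labelled samples. The WT samples were close together, and labelled replicate 3 lay far below the rest. The difference was -0.34 (standard error 0.15, adjusted p = 0.417), and -0.16 without labelled replicate 3. *Copg2*, its neighbour and not a member, read 8.83 in each WT sample and 8.62, 8.71 and 8.58 in labelled samples, a difference of -0.19 (standard error 0.08, adjusted p = 0.403). Both neighbours had groups that did not overlap.

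In the *Peg3* domain, the paternally expressed zinc finger gene *Peg3* read 9.83, 9.996 and 9.84 in WT and 9.81, 9.97 and 9.98 in labelled samples. Its difference of 0.03 had an interval from -0.19 to 0.26, so that a change beyond 1.5-fold lay outside the interval. *Zim1*, a maternally expressed zinc finger gene beside it, read 4.75, 5.75 and 5.54 in WT and 4.89, 4.97 and 4.49 in labelled samples. As for *Meg3*, WT replicates 2 and 3 stood above all others and WT replicate 1 lay among the labelled samples. The difference of *Zim1* was -0.56 (standard error 0.26, adjusted p = 0.431), and -0.86 without WT replicate 1. *Usp29*, a paternally expressed ubiquitin protease gene that starts head to head with *Peg3*, differed by -0.18.

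*Gnas* encodes the stimulatory G protein alpha subunit, and its locus also makes paternally and maternally expressed transcripts that share exons, so that its row adds them up. It read 5.49, 5.54 and 5.82 in WT and 5.32, 5.42 and 5.12 in labelled samples. All labelled samples lay below all WT samples. The difference was -0.33 (standard error 0.12, adjusted p = 0.349), or 1.26-fold.

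Of the intronic pairs, *Mcts2* and *H13* had lower means in labelled samples. *Mcts2* is a paternally expressed retrogene inside *H13*, which encodes a signal peptide peptidase and gives its full-length transcript from the maternal copy. *Mcts2* read 7.40, 7.48 and 7.47 in WT and 7.35, 7.22 and 7.33 in labelled samples, without overlap, and its difference was -0.15 (standard error 0.09, adjusted p = 0.534). *H13* read 6.33, 6.44 and 6.68 in WT and 6.21, 6.16 and 6.37 in labelled samples, a difference of -0.24 (standard error 0.12, adjusted p = 0.465). *Mcts1*, the gene from which *Mcts2* was copied, differed by 0.20. Signal of a retrogene and of its parent on shared probes cannot be separated here. The other pair, *Nnat*, a paternally expressed proteolipid gene, and *Blcap*, the gene whose intron holds it, had differences of opposite sign. *Nnat* read 8.03, 8.87 and 8.61 in WT and 8.63, 8.87 and 8.58 in labelled samples, a difference of 0.19 (standard error 0.20), with WT replicate 1 far below the rest. *Blcap* read 6.82, 6.96 and 6.93 in WT and 6.61, 6.41 and 7.02 in labelled samples, a difference of -0.22 (standard error 0.15).

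The *Snrpn* domain, which is the Prader-Willi and Angelman region in humans, had 6 members with differences between -0.12 and 0.11. *Ube3a*, the ubiquitin ligase gene of the maternal copy in neurons, read 8.45, 8.53 and 8.44 in WT and 8.32, 8.40 and 8.36 in labelled samples. The groups did not overlap, the SD was 0.05 in WT and 0.04 in labelled samples, and the difference was -0.12 (standard error 0.08, adjusted p = 0.619). *Snrpn*, which encodes a splicing protein from the paternal copy, read 4.89, 5.19 and 5.24 in WT and 5.13, 4.99 and 4.83 in labelled samples, a difference of -0.12 (standard error 0.13). The other paternally expressed genes were close to 0, with *Ndn*, a gene of the MAGE family, at 0.06, *Magel2*, of the same family, at -0.06, *Mkrn3*, a zinc finger gene that restrains puberty, at -0.02, and *Peg12* at 0.11.

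In the *Peg10*-*Sgce* domain all 4 members had a lower mean in labelled samples and all overlapped. *Sgce*, which encodes epsilon-sarcoglycan, read 3.64, 3.57 and 3.90 in WT and 3.69, 3.63 and 3.66 in labelled samples, a difference of -0.04 (standard error 0.11). *Peg10*, a retrotransposon-derived gene needed for the placenta, read 6.89, 7.37 and 7.37 in WT and 7.13, 7.07 and 6.82 in labelled samples, a difference of -0.21 (standard error 0.15). The maternally expressed *Ppp1r9a*, an actin-binding gene, differed by -0.34 and *Asb4* by -0.21. For *Asb4*, labelled replicate 3 at 6.35 lay below the other samples at 6.70 or more, and for *Ppp1r9a* labelled replicate 1 at 5.62 lay below the others at 6.25 or more.

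The remaining 7 members each stood alone in a domain. *Slc38a4*, a paternally expressed amino acid transporter gene, read 8.18, 8.30 and 7.83 in WT and 7.71, 8.65 and 8.59 in labelled samples, a difference of 0.21 (standard error 0.25). Labelled replicate 1 was the lowest and labelled replicates 2 and 3 were the highest of its 6 samples. *Grb10*, a maternally expressed inhibitor of insulin signalling outside neurons, read 6.76, 7.33 and 7.20 in WT and 6.86, 6.96 and 6.58 in labelled samples, a difference of -0.30 (standard error 0.17). *Plagl1*, a paternally expressed zinc finger gene, differed by -0.10, *Zrsr1*, a retrogene related to a splicing factor, by -0.13, and *Zdbf2* by -0.04. *Impact*, a translational regulator gene, differed by -0.06 and *Inpp5f*, a phosphatase gene, by -0.10, and in all of these the groups overlapped.

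**Figure D4:**
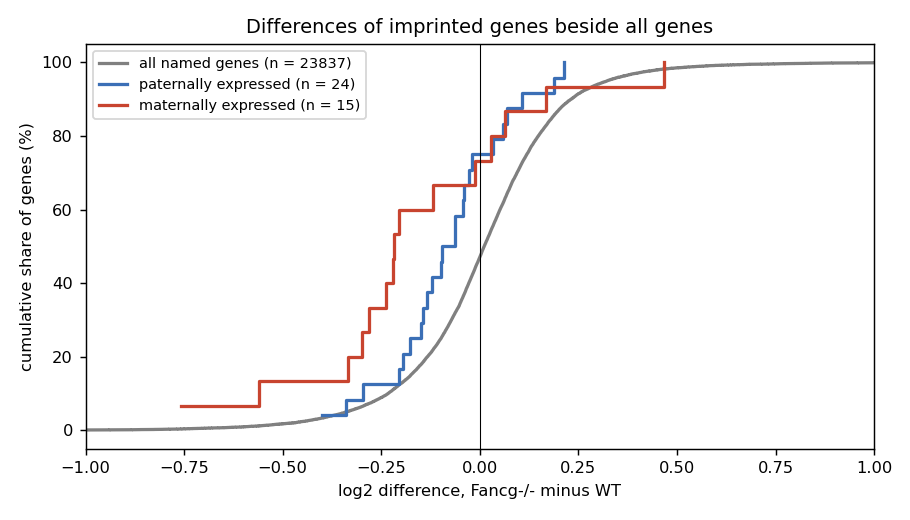
Cumulative share of genes (%) by log2 difference, *Fancg*-/- minus WT, for all 23837 named genes (grey), the 24 paternally expressed (blue) and the 15 maternally expressed members (red). At their medians both member curves lie to the left of the grey curve, with -0.08 and -0.22 against 0.01. The blue curve starts to rise only at -0.40 and the red one at -0.76, and the horizontal axis ends at 1 on either side.

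A further list of 40 imprinted genes that are not members was nearly balanced in sign. Of these, 35 had a row, 19 had a lower and 16 a higher mean in labelled samples, and the median was -0.02. Past the unadjusted threshold of 0.05 lay 2 higher and 3 lower genes, or 14.3%, beside 12.4% of all genes. *Ins2*, the insulin gene next to *Igf2*, differed by 0.71 (standard error 0.20, adjusted p = 0.243) and *Sfmbt2*, a polycomb-related gene, by 0.28. *Dcn*, the proteoglycan gene decorin that stromal cells express, differed by -0.55 (standard error 0.19) and *Peg13* by -0.24, beside *Cdkn1c* above.

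Among 20 factors that keep or erase imprints, 3 were lower and 0 higher at the unadjusted threshold, with a median difference of -0.12. This was 15% of the factors, beside 12.4% of all genes. *Uhrf1*, which brings the maintenance methylase to replicating DNA, read 7.60, 7.77 and 7.82 in WT and 7.50, 7.13 and 7.01 in labelled samples, a difference of -0.52 (standard error 0.14, adjusted p = 0.215). *Tet2*, an enzyme that oxidizes methylcytosine, read 5.73, 6.47 and 5.79 in WT and 5.43, 4.97 and 5.33 in labelled samples, a difference of -0.75 (standard error 0.21, adjusted p = 0.233). *Arid4a*, a chromatin gene linked to the Prader-Willi region in mouse, differed by -0.50 (standard error 0.15, adjusted p = 0.25). For these 3 genes all labelled samples lay below all WT samples, and none was called. The same held for *Hells* and *Tet1*, while for *Trim28* all labelled samples lay above. Groups thus did not overlap for 30% of the factors, beside 17.9% of all genes. *Tet1*, the family member most studied in PGCs, differed by -0.16, *Dnmt1*, the maintenance methylase gene, by 0.01 and *Trim28*, the cofactor of ZFP57, by 0.04. *Zfp57* itself read 5.34, 5.38 and 5.90 in WT and 5.55, 5.49 and 5.15 in labelled samples, a difference of -0.14 (standard error 0.17).

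Markers of somatic gonad cells differed between the same samples. Expression of the members in such cells was not measured here. In a sorted pool, fewer cells of a type and less RNA per cell cannot be told apart. The part of such cells in the members' differences was not tested. Fits with a covariate, given further on, only describe how the differences moved. At an unadjusted p under 0.05 lay 12.4% of all genes, 6.17% lower and 6.23% higher. In either direction, the share was 100% of the measured Leydig, 33.3% of the stroma and 25% of the Sertoli cell markers. It was 50% of the endothelial, 25% of the macrophage, 14.3% of the erythroid and 28.6% of the germ cell markers. Of 6 fetal Leydig cell markers, 5 had a row and all 5 were lower at the unadjusted threshold, with a median of -1.55. Their mean was 5.72 to 6.35 in WT and 4.001 to 4.72 in labelled samples, without overlap. Of 12 interstitial stroma markers, 4 were lower and 0 higher (*Nr2f1*, *Tcf21*, *Col3a1* and *Col1a2*), with a median of -0.20. The stroma mean was 5.18, 5.63 and 5.54 in WT and 5.36, 5.31 and 5.12 in labelled samples, and WT replicate 1 lay within the labelled samples, as it did for the mean of the members, *Meg3* and *Zim1*. For *Dio3*, *Mest* and *Gnas*, WT replicate 1 lay above all labelled samples. Of 12 Sertoli cell markers, 3 were lower (*Inha*, *Mro* and *Wt1*) and 0 higher, with a median of -0.39 and means of 6.26, 6.49 and 7.04 in WT and 6.36, 5.95 and 6.42 in labelled samples. Of 10 endothelial markers, 5 were higher and 0 lower, with a median of 0.34 and means of 4.85 to 5.32 in WT and 5.19 to 5.59 in labelled samples. *Pecam1*, one of these, is also expressed by PGCs. Macrophage markers had a median of 0.06 over 8 genes, with 2 higher, and erythroid markers of 0.02 over 7 of 10, with 1 lower. Germ cell markers had a median of -0.01 over 14 genes, with 2 lower and 2 higher, *Nanos2*, a gene of male germ cell commitment, at -1.90 (standard error 0.33, adjusted p = 0.147), *Tdrd1* at -0.56, *Tfap2c* at 0.56 and *Nanos3* at 0.44.

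**Figure D5:**
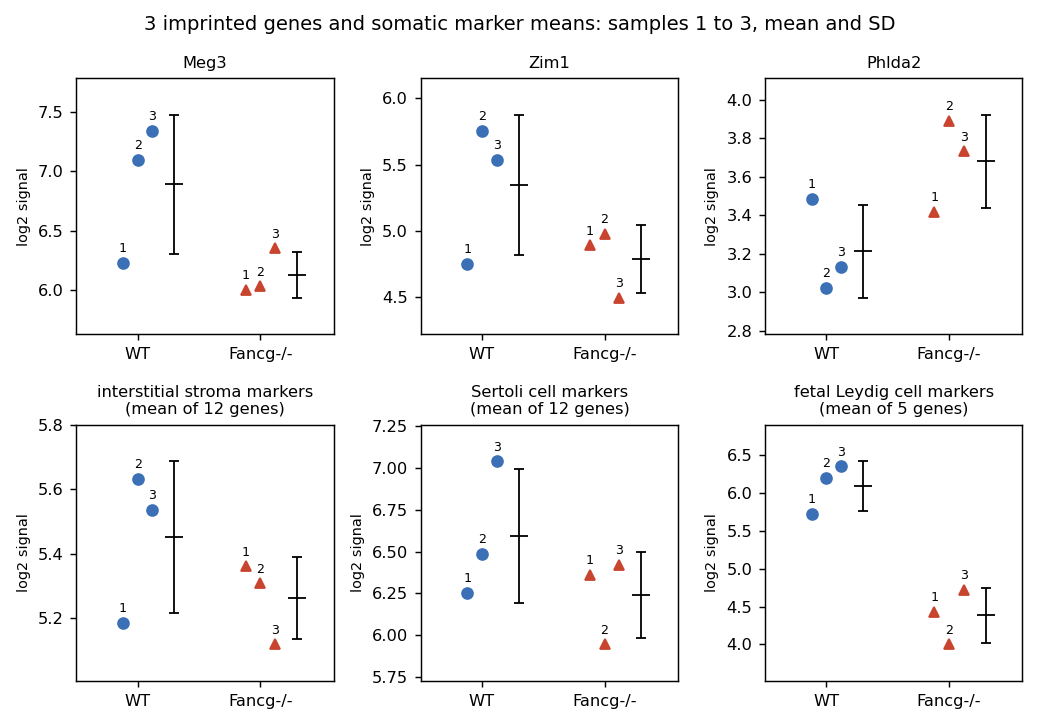
Log2 signal (vertical axes, a scale per panel) of *Meg3*, *Zim1* and *Phlda2* (upper row) and the mean over markers of interstitial stroma, Sertoli cells and fetal Leydig cells (lower row) in each sample, numbered by replicate, with the group mean and SD (n = 3) in black. *Meg3*, *Zim1* and the stroma mean share the low position of WT replicate 1, while the Leydig mean separates all samples of both groups.

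With marker means as a covariate in the fit, the differences of many members moved. The stroma mean alone and the Sertoli mean alone were chosen as covariates after the data were seen. With the mean of the stroma markers alone, the median over members was -0.03, and *Meg3* was -0.49, *Zim1* -0.15 and *Mest* -0.26. This mean shares its low WT replicate 1 with *Meg3* and *Zim1*, so that smaller differences of these genes were largely built into the fit. With the mean of the Sertoli markers alone, *Meg3* was -0.41, and 1 member was lower and 0 higher at the unadjusted threshold. Over all genes, 8.3% were past that threshold in this fit. With the Leydig, Sertoli and stroma lists averaged together, the median over members was 0.02 and 20 members changed sign, *Meg3* being at 0.40 and *Dio3* at -0.62. That mean was 5.72, 6.11 and 6.31 in WT and 5.38, 5.09 and 5.42 in labelled samples, so that it does not overlap between the groups, and its part and that of genotype cannot be told apart in these 6 samples. Leaving out WT replicate 1 gave 7 members lower at the unadjusted threshold in place of 3, leaving out WT replicate 3 gave 1 and leaving out labelled replicate 3 gave 5. The share of all genes past it in either direction moved too. It was 13.4%, 8.72% and 11.2% in these fits, in the same order, and 12.4% in the main fit.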

How the data were processed

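PGC RNA from 6 samples was amplified by the NuGEN Ovation protocol and hybridized to 1-colour Affymetrix arrays. The authors deposited log2 signals made by RMA. The submitters' processing notes list Partek. No source used here gives a version or a genome build. A name was found for 23837 of 24479 rows, for 23712 of them in the RefSeq gene table (GRCm38.p6), and the 642 others were not tested. Arrays have no read depth, and their number limits the precision. Differences were fitted with limma 3.58.1 (lmFit, eBayes) in R 4.3.3 with genotype as the only term, and p-values were adjusted by Benjamini-Hochberg over every named gene. The procedure was tested on simulated data. The members, lists, tests and alternatives were chosen with earlier results of these data known. Values in all samples are given for members with an unadjusted p under 0.05 or groups that do not overlap, for the 6 with the highest and the 4 with the lowest mean signal, for a partner of each in its domain, and from other lists for up to 4 genes with the smallest p and for genes whose role a sentence turns on (*Zfp57*, *Copg2*). *Grb10* and the members named with the values of 1 sample were added after their values were seen. Alternatives were the methods' t-test, array weights, a robust prior with an intensity trend, 2 further scalings, filters on low signals, a replicate block, marker means as covariates and leaving out each sample. The stroma mean alone and the Sertoli mean alone were chosen after seeing the data.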

Additional observations from a re-analysis of the deposited data

How the results depend on the processing

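The 10 members given an adjusted p had been taken for small p-values or for groups without overlap. Over these and 18 alternatives, 174 values kept their sign and their side of the threshold and 5 reversed. All 5 came with the averaged Leydig, Sertoli and stroma lists as a covariate, whose values do not overlap between the groups. These were *Meg3* at 0.40, *Phlda2* at -0.0878, *Zim1* at 0.0526, *Mcts2* at 0.0051 and *H13* at 0.16. With that covariate the medians were 0.0237 over all members, 0.098 over paternally and -0.0137 over maternally expressed ones, and 1 member was lower at an unadjusted p under 0.05. In that fit 5.6% of all genes were past the unadjusted threshold in either direction. The stroma mean alone gave a median of -0.0331, and the Sertoli mean alone 0 members higher and 1 lower, beside 8.3% of all genes. Over all 40 members more signs changed. These were 20 with the averaged lists, 8 with the Sertoli mean, 7 with the stroma mean and 7 without WT replicate 3. Each other alternative changed at most 4. The number of members lower was 5 with an intensity trend and robust prior and 6 with array weights. Over all genes, 12.9% and 14.6% were past the threshold in either direction in these fits, and 12.4% in the main fit. The number higher was 0 by the methods' t-test, which gave 2408 genes at an unadjusted p under 0.05 and 0 after Benjamini-Hochberg, and 0 without the lower-signal 50% of rows, where *Phlda2* was not tested.

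Leaving out each sample in turn gave 0 to 2 members higher and 1 to 7 lower, medians of -0.17 to -0.07 over all members, -0.16 to -0.01 over paternally and -0.26 to -0.12 over maternally expressed ones, 0 members called, and 0 to 3 genes called, the 3 without WT replicate 1 being *Cntfr*, *Hsd3b1* and DQ267100. The share of all genes past the unadjusted threshold ranged from 8.72% to 13.4% with 1 sample left out. Over all fits, adjusted p ranged from 0.140 to 0.864 for *Dio3* and from 0.0905 to 0.951 for *Meg3*. Same-numbered samples did not deviate together (correlations of -0.14, -0.11 and 0.03). No pairing by number was seen, though this check cannot exclude one. With the replicate number as a block 0 genes and 0 members were called and 4 members were lower and 1 higher. Over all genes, 10.4% were past the unadjusted threshold in that fit. With 3 pools per group and 1 array each, small differences could not be resolved. The half-widths above belong to unadjusted intervals and are not limits for a call. The 4 members whose difference exceeded its half-width were still not called.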
